A study of Mus musculus with 11 samples.

Results

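Rab proteins are small GTPases, and their genes were followed here through single-nucleus RNA counts of mouse brain. Members were the gene symbols made of Rab and a number, with an optional letter and digit, so that interacting proteins such as Rab3gap1 stayed out. This rule took 59 of the 25938 genes in the deposited matrix. Of these, 56 passed the filter on low counts in all nuclei, and Rab44, Rab25 and Rab17, with 49, 47 and 3 UMIs (unique molecular identifiers, counted RNA molecules) in total, did not.

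A Rab protein switches between a GTP-bound form that sits on a membrane and recruits effectors, and a GDP-bound form that returns to the cytosol. Each Rab marks a particular compartment, so the family as a whole lays out the route of a receptor that is taken up from the cell surface. The transferrin receptor (TfR) is the classical cargo of this route. It enters early endosomes marked by Rab5, and most of it goes back to the surface by the Rab4 and Rab11 pathways, while cargo kept in the endosome passes on to late endosomes marked by Rab7. Brain endothelium uses receptor uptake of this kind to move transferrin across the vessel wall, and neurons use other Rabs, foremost those of the Rab3 family, at synaptic vesicles.

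The mice carried the genotype hTfR KI HOM, a human TfR knock-in, in all groups, so that the controls shared it. Each received 4 weekly intravenous doses, and brain was taken 72 h after the last one. ATV:BACE1 at 57 mg/kg (n = 3), a molecule that binds the TfR and holds no antisense oligonucleotide (ASO), was the control. OTV:Malat1 at 60 mg/kg (n = 3) carries an ASO against the nuclear RNA Malat1 on a TfR-binding molecule, nonTV:Malat1 at 60 mg/kg (n = 3) carries it on a molecule that does not bind TfR, and Malat1 ASO at 2.5 mg/kg (n = 2) is the free ASO. In every group replicate 1 was a female of 2.33 months in batch 1, replicate 4 a male of 2.57 months in batch 3 and replicate 5 a male of 2.33 months in batch 4, and the Malat1 ASO group had replicates 1 and 5 only. Batch, replicate number, sex and age therefore cannot be told apart. The labels give the brain region as posterior and the file's own metadata as cortex with strain C57BL/6J, and which of them holds was not settled.

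The 110304 nuclei had a median of 2859 UMIs (2205 to 3666 by library), and library totals ran from 33235994 to 43972886 UMIs. Malat1, the target, accounted for 7.45%, 7.54% and 8.38% of UMIs in the control libraries 1, 4 and 5, and for 7.49%, 7.61% and 8.39% with nonTV:Malat1. It took 4.95%, 4.00% and 5.03% in OTV:Malat1 and 7.87% and 8.15% in Malat1 ASO, so that the OTV:Malat1 libraries lay below all others. Any pair of libraries shared 0.154% to 0.551% of cell barcodes, and 10.4% of nuclei were called doublets by the authors and were kept. Nuclei had been named by the authors as 10 classes, of which 9 were used for levels, each in the libraries where it held at least 20 nuclei. Median depth differed between them, from 3926 UMIs in neurons to 947 in oligodendrocytes, 960.5 in vascular endothelium and 821 in vascular smooth muscle. The class named glia carried Otx2 and Folr1, genes listed as markers of choroid plexus and ependyma, and 19.5% of its nuclei were called doublets. In what follows, glia means this class. The class named pericytes carried the endothelial genes Cldn5 and Flt1 at levels of 2304 and 4554, near the 2537 and 5820 of vascular endothelium, so these 2 classes were not cleanly parted.

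The level of a gene is its UMIs per 1000000 UMIs (CPM) of the same library and class, with Malat1 left out of the total. It is not corrected for gene length, so levels are compared between classes and not between genes. Levels over classes are described by the mean and range over libraries, with no test.

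Together the 59 Rab genes were by mean at their lowest summed level in neurons and at their highest in microglia. These classes also differed in depth, with a median of 3926 UMIs per nucleus in neurons and 883 in microglia. The sums were not split by depth, and Rabs such as Rab3a and Rab14 were higher in shallow than in deep neuronal nuclei, as given below. The sum was 2460 ± 143 CPM in neurons (SD, n = 11 libraries), 2536 ± 153 in glia, 3090 ± 174 in astrocytes and 3585 ± 193 in oligodendrocytes. It reached 4015 ± 360 in microglia, where the range of 3243 to 4568 overlapped that of oligodendrocytes, 3254 to 3781. Neuronal libraries, at 2193 to 2611, overlapped those of glia, at 2318 to 2764. The sums of the role lists had different leading classes, and a single gene carried much of the lead in the first 2 lists and in the secretory one. The 6 Rabs of the early endosome summed to 926 ± 73.4 in oligodendrocytes and 279 ± 27.5 in neurons, with no overlap of libraries. Without Rab31, a sum added after the data were seen like the other 2 below, they came to 297 ± 28.4 in oligodendrocytes and 207 ± 22.3 in neurons, and pericytes led at 459 ± 51.8. The 13 Rabs of recycling and return to the surface were highest in microglia at 1112 ± 140, pericytes at 1003 ± 93.9 and vascular endothelium at 994 ± 93.6, against 486 ± 35.6 in neurons. Without Rab8b, microglia were at 776 ± 100.4, below vascular endothelium at 928 ± 82.2 and pericytes at 911 ± 93.1. The 6 Rabs of late endosomes, lysosomes and autophagy were highest by mean in vascular endothelium at 342 ± 67.0. Pericytes were at 329 ± 25.3, and the libraries of these classes overlapped. The 8 Rabs of secretory and synaptic vesicles summed to 434 ± 20.7 in neurons, 313 ± 76.5 in microglia and 164 ± 34.1 in glia. Without Rab3c, neurons were at 209 ± 15.0, microglia at 252 ± 71.8 and vascular smooth muscle at 243 ± 71.3, with overlap. Rab3a remains in this sum, and its neuronal level differed with depth, 213 in nuclei under 1000 UMIs and 43.1 in deeper ones.

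**Figure D1:**
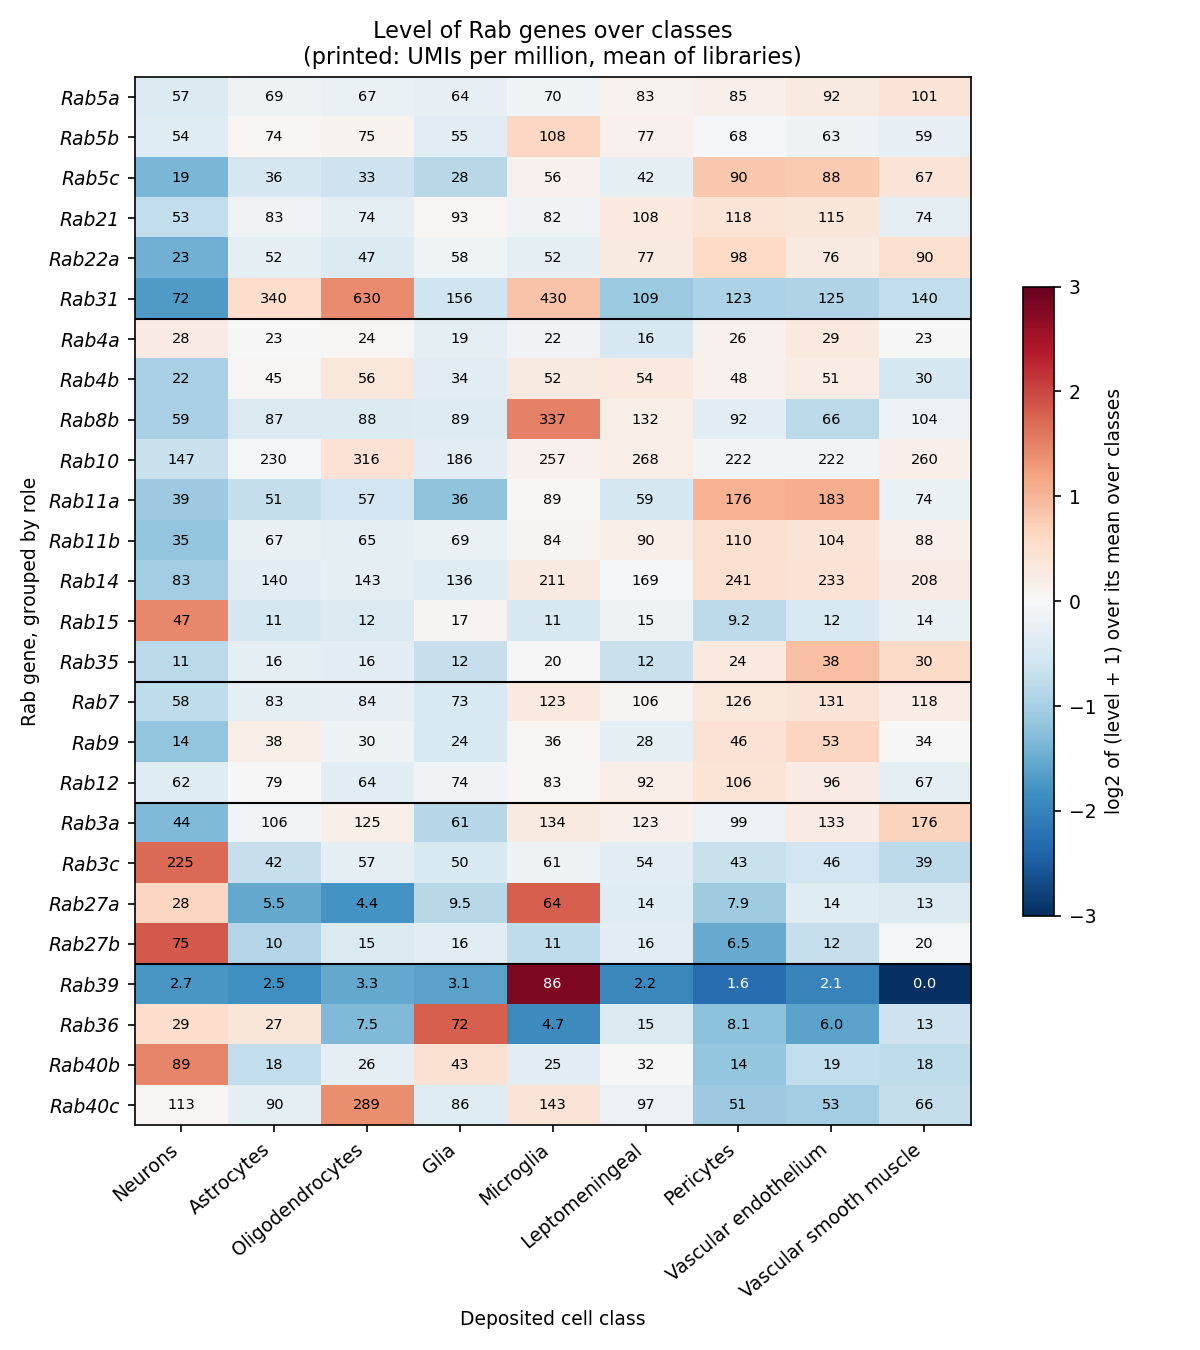
Levels of 26 Rab genes over 9 classes. Printed numbers are CPM with Malat1 left out (mean of 11 libraries, 8 for vascular smooth muscle), and colour gives log2 of the level plus 1 over its mean over classes; black lines part early endosome, recycling, late endosome, secretory and other roles. Most endosomal rows are palest or bluest in neurons, while Rab3c, Rab27b, Rab15 and Rab40b are reddest there.

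The 9 classes used for levels were compared here, without perivascular macrophages. Libraries of 1 class lay above every library of every other class for 4 of the 59 Rab genes, against 8.7% of all genes tested. These were Rab39 in microglia (1.48% of all genes tested were highest there), Rab3c and Rab40b in neurons (2.22%) and Rab40c in oligodendrocytes (1.4%). Vascular smooth muscle had only 330 nuclei and very wide ranges. Without it, a choice made after the data were seen, 5 more Rabs met the same condition: Rab8b and Rab27a in microglia (1.81% of all genes tested), Rab15 and Rab27b in neurons (2.83%) and Rab36 in glia (2.24%), while Rab40c remained the one in oligodendrocytes (1.62%). With pericytes also left out, Rab11a in vascular endothelium joined them (2.09%).

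Rab39 in microglia and Rab40b in neurons led without overlap, while Rab31 in oligodendrocytes and Rab11a in vascular endothelium overlapped the next class. The promoters of these 4 Rabs, whose highest means lie in 4 different classes, are shown here. They are the 250 bases before the RefSeq start on GRCm38.p6, read 5′ to 3′ on the minus strand, with the pentamer CCAAT or its reverse complement ATTGG in capitals: Rab11a at chr9:64737757-64738006, Rab31 at chr17:65772753-65773002, Rab39 at chr9:53706233-53706482 and Rab40b at chr11:121388252-121388501.
Rab11a: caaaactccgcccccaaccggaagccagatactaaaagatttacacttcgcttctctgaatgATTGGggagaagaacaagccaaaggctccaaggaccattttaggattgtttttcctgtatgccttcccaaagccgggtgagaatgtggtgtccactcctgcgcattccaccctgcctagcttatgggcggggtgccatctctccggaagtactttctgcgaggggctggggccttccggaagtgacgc
Rab31: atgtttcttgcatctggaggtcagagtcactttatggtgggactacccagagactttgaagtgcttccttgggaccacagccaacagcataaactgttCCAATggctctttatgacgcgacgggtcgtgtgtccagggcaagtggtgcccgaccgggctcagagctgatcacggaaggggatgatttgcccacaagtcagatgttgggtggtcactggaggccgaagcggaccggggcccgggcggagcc
Rab39: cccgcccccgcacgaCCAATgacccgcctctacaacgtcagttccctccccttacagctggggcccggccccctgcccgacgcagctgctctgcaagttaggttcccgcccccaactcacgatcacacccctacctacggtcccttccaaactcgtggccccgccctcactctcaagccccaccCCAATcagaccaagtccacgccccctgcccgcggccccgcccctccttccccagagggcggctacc
Rab40b: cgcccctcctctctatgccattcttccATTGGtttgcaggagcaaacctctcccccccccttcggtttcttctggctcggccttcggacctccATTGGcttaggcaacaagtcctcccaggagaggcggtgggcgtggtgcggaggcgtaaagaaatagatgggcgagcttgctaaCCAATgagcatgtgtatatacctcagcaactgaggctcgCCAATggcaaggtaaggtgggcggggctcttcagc
CCAAT or ATTGG occurred in 22 of 46 Rab promoters that RefSeq holds for tested members (47.8%) and in 35.3% of the 14884 promoters of all tested genes. Rab40b had 4 matches, Rab39 had 2, and Rab11a and Rab31 had 1 each. TATAAA or its reverse complement occurred in 4 of the 46 (8.70%, against 8.01%). CG pairs numbered 3 to 40 per Rab promoter with a median of 17, against 13 over all tested genes. A match is only a run of letters in this window and does not show that a factor binds it.

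Among the recycling Rabs, Rab11a had its highest mean levels in vascular endothelium and pericytes, while vascular smooth muscle came after microglia. Rab11a acts on the slow recycling endosome that returns TfR to the surface, and its gene lies on chromosome 9 at 64715299 to 64737758 (GRCm38, minus strand). In vascular endothelium its level was 210, 142 and 167 CPM in replicates 1, 4 and 5 of ATV:BACE1, 205, 245 and 161 in nonTV:Malat1, 193, 133 and 193 in OTV:Malat1, and 190 and 177 in Malat1 ASO replicates 1 and 5. The groups overlapped, and each of these 11 libraries lay above the highest microglial one at 119, while 1 vascular smooth muscle library reached 150. The mean was 183 ± 32.0 in vascular endothelium and 176 ± 26.5 in pericytes, against 89.3 ± 18.7 in microglia, 57.0 ± 13.2 in oligodendrocytes, 51.1 ± 6.02 in astrocytes and 39.3 ± 5.13 in neurons. In the order of 9 classes, pericytes and microglia were the only neighbours whose libraries did not overlap. Rab11b, its close relative, was flatter: 110 ± 34.7 in pericytes and 104 ± 32.5 in vascular endothelium, 65.1 ± 8.51 in oligodendrocytes and 34.5 ± 4.05 in neurons.

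**Figure D2:**
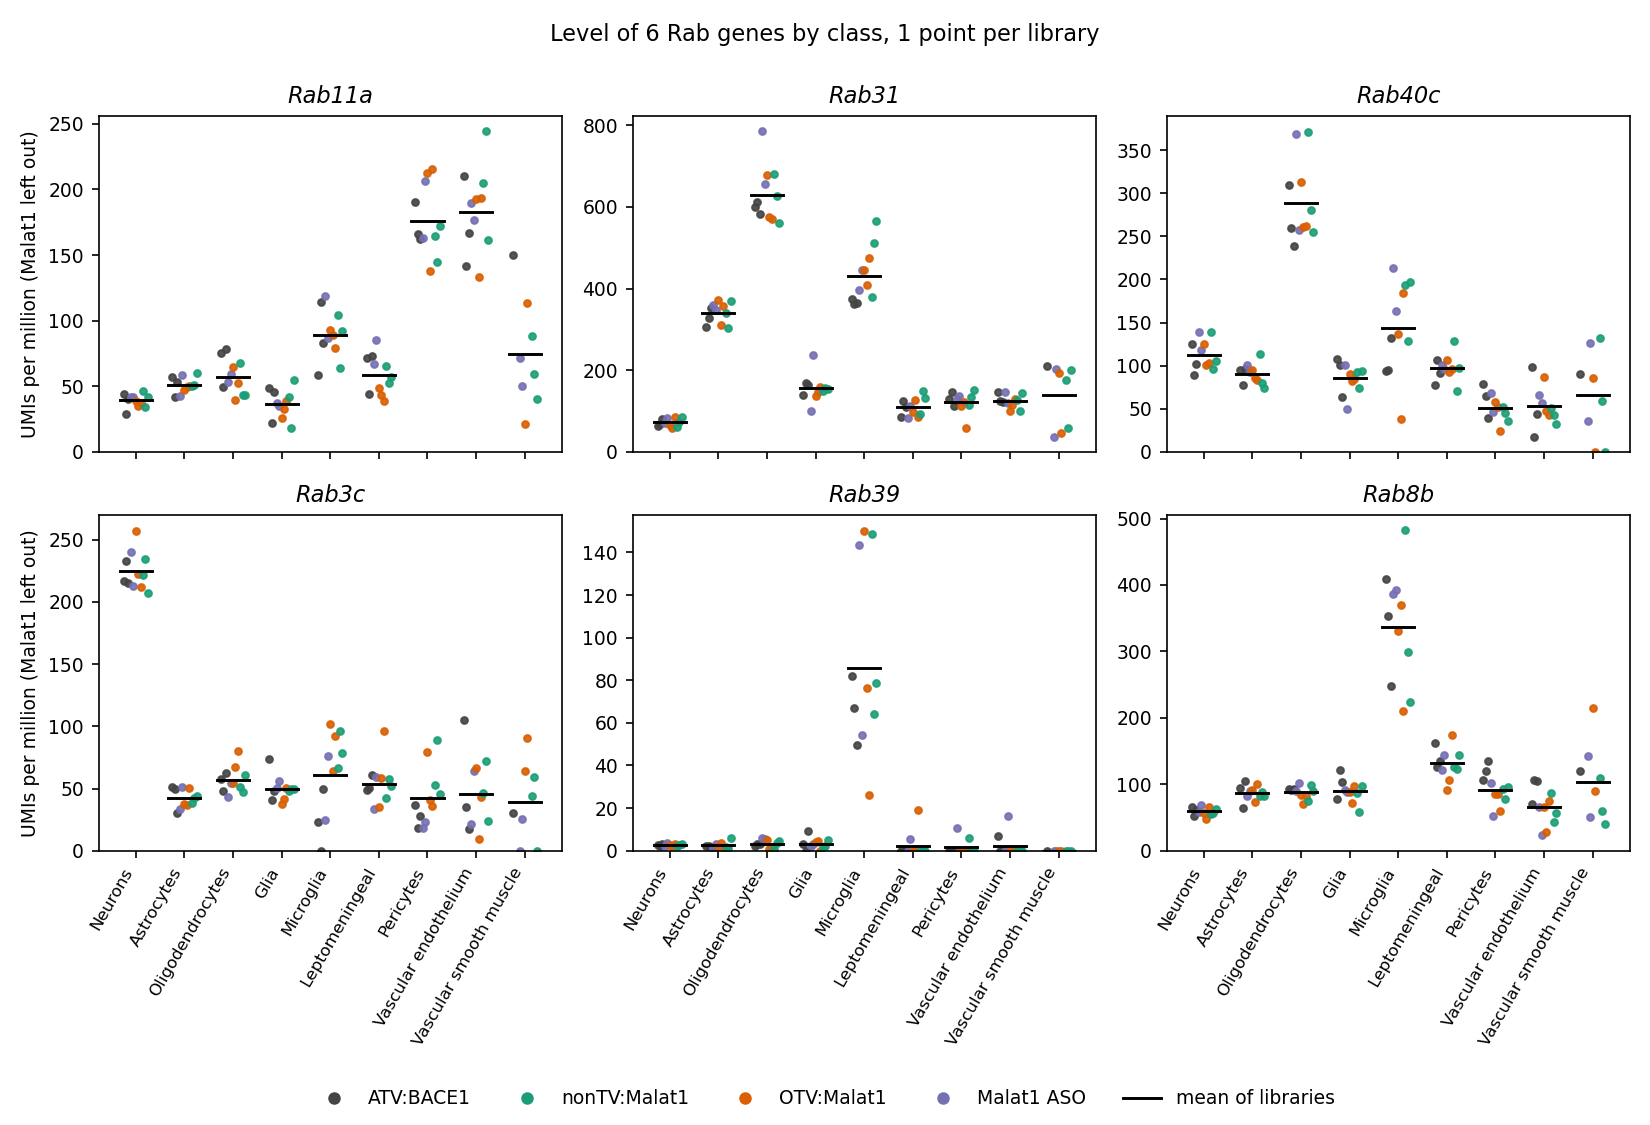
Levels of 6 Rab genes in each library (points, coloured by dosing group) and class, in CPM with Malat1 left out; black bars are means over libraries. Rab11a is high in pericytes and vascular endothelium, Rab31 and Rab40c in oligodendrocytes, Rab3c in neurons, and Rab39 and Rab8b in microglia, and in each the colours are mixed.

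Of the fast recycling pair, Rab4b was lowest by mean in neurons, at 21.6 ± 2.15 against 30.1 to 55.8 in the other classes, with overlap between all neighbours. Rab4a had no such order, from 16.4 ± 8.02 in leptomeningeal cells to 28.6 ± 24.8 in vascular endothelium, with neurons at 27.8 ± 1.88. Rab10, which serves the return of cargo such as GLUT4 to the surface, was highest by mean in oligodendrocytes at 316 ± 32.1 and lowest in neurons at 147 ± 9.29. Neurons and glia, at 186 ± 24.5, were the only neighbours in the order of Rab10 whose libraries did not overlap. Rab14, which links the Golgi and endosomes, was 241 ± 25.2 in pericytes, 233 ± 42.0 in vascular endothelium and 83.5 ± 7.94 in neurons. Rab14 was the only Rab whose neuronal libraries all lay below those of every other class, with a neuronal maximum of 94.5 (0.504% of all genes tested had this pattern). Rab35 was sparse, at 37.6 ± 18.4 in vascular endothelium and 10.8 ± 1.33 in neurons, with overlap between all neighbours. Rab15, a Rab of early and recycling endosomes known from neurons, was 46.8 ± 5.25 in neurons and 17.4 ± 6.91 in glia, the next class. Rab8b, which works in traffic from the recycling endosome and Golgi to the surface, reached 337 ± 84.5 in microglia, against 132 ± 23.5 in leptomeningeal cells and 59.4 ± 6.33 in neurons. Its microglial libraries ran from 211 to 483, and 1 vascular smooth muscle library reached 215. In perivascular macrophages, left out of these classes, Rab8b was higher, at 659 (exact Poisson 95% interval 528 to 813, counting error only).

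Of the early endosome Rabs, Rab31 differed most between classes. Rab31 (also named Rab22b) moves cargo between the Golgi and early endosomes and lies on chromosome 17 at 65651729 to 65772752 (minus strand). In oligodendrocytes its level was 599.5, 612 and 582 CPM in replicates 1, 4 and 5 of ATV:BACE1, 681, 626 and 559.7 in nonTV:Malat1, 678, 575 and 571 in OTV:Malat1, and 785 and 657 in Malat1 ASO replicates 1 and 5. The groups overlapped except that both Malat1 ASO libraries lay above the 3 control ones. The class means were 629.5 ± 66.8 in oligodendrocytes, 430 ± 66.2 in microglia, 340.5 ± 25.2 in astrocytes and 156 ± 32.9 in glia, and 72.3 ± 9.71 in neurons. Only astrocytes and glia did not overlap among neighbours, so 3 classes lay above the other 6. Between the most and the least, Rab31 differed 8.70 times.

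Rab5, which drives fusion of incoming vesicles with early endosomes, has 3 genes here, and they differed in their class pattern. Rab5a was nearly even, from 57.4 ± 6.74 in neurons to 101 ± 58.4 in vascular smooth muscle. Rab5b was highest by mean in microglia at 108 ± 44.3 and lowest in neurons at 54.0 ± 6.40. Rab5c was 90.0 ± 21.9 in pericytes and 88.2 ± 32.5 in vascular endothelium, against 35.8 ± 7.96 in astrocytes and 19.2 ± 2.55 in neurons, a 4.68-fold span. All neighbours overlapped in all 3. Rab22a, of early endosomes and recycling tubules, and Rab21, which carries integrins inward, had the most similar class patterns of the 16 endosomal Rabs compared (Pearson r 0.98 of log2 levels over 8 classes, which share libraries). Both were highest by mean in pericytes, at 97.6 ± 13.1 and 118 ± 19.0, and lowest in neurons, at 22.7 ± 1.97 and 53.2 ± 7.59, and neuronal libraries of Rab22a lay below all those of oligodendrocytes, the next class. Rab11a was most like Rab5c by the same measure (r 0.96).

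Rab7, Rab9, Rab12 and Rab24 of the late endosome and autophagy list had their highest means in vascular endothelium or pericytes. Its other members did not: Rab9b was highest by mean in neurons, at 6.73 ± 1.08 with a 7.14-fold span over classes, and Rab7b in leptomeningeal cells, at 13.5 ± 9.06. Rab7, which governs the step from late endosome to lysosome, was 131 ± 34.5 in vascular endothelium, 126 ± 18.1 in pericytes, 123 ± 24.6 in microglia and 58.4 ± 3.16 in neurons. Rab9, of late endosome to Golgi return, was 53.4 ± 20.1 in vascular endothelium and 14.4 ± 1.57 in neurons. Rab12, known for directing TfR to degradation, was the most even of the 16, from 62.2 ± 2.71 in neurons to 106 ± 12.4 in pericytes. All neighbours overlapped for Rab7, Rab9 and Rab12.

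The 8 secretory Rabs had different leading classes. Their means were highest in neurons for Rab3b, Rab3c, Rab26 and Rab27b, in microglia for Rab27a, in vascular smooth muscle for Rab3a and in vascular endothelium for Rab3d. Rab37, a Rab of secretory granules, was highest in oligodendrocytes at 34.8 ± 9.42, with no overlap with neurons, the next class by mean, at 9.94 ± 1.65. Rab3c, a synaptic vesicle Rab, was 217, 233 and 215 CPM in neurons of ATV:BACE1 replicates 1, 4 and 5, 222, 235 and 207 in nonTV:Malat1, 257, 223 and 212 in OTV:Malat1, and 240 and 213 in Malat1 ASO. Its neuronal mean of 225 ± 14.9 was 3.67 times the next class, microglia, at 61.2 ± 33.2. Rab27a and Rab27b, close relatives that dock secretory vesicles, had opposite leading classes. Rab27b was 74.9 ± 4.18 in neurons and 11.4 ± 10.6 in microglia, and Rab27a was 28.4 ± 1.85 in neurons and 64.0 ± 18.5 in microglia. Neuron markers (Meg3, Rbfox3, Snap25, Syt1) were found in every other class at 5.99% to 34.2% of their neuronal level. The levels of Rab3c, Rab27b, Rab15 and Rab40b outside neurons lie partly in that range, and how much of them is free neuronal RNA was not tested.

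Outside these roles, Rab39 had its highest level in microglia. Rab39, linked to traffic of phagosomes and the Golgi, was 85.5 ± 42.7 in microglia and at most 3.32 ± 1.82 in the other 8 classes used for levels, a 25.8-fold step to oligodendrocytes. In perivascular macrophages, the tenth class, with 125 nuclei summed over libraries, it was 68.2 (exact Poisson 95% interval 31.2 to 129, counting error only). Its microglial level was 81.9, 144, 150 and 149 in the replicate 1 libraries of ATV:BACE1, Malat1 ASO, OTV:Malat1 and nonTV:Malat1, and 26.4 to 78.9 in the other 7. The replicate 1 libraries were thus all above the rest, which was noticed after the values were seen. Rab40c and Rab40b, which carry a SOCS box and join ubiquitin ligases, parted between oligodendrocytes and neurons. Rab40c was 289 ± 46.1 in oligodendrocytes, 2.02 times the 143 ± 53.4 of microglia, and Rab40b was 89.2 ± 5.57 in neurons, 2.05 times the 43.4 ± 7.86 of glia. Rab36 was 72.3 ± 11.4 in the class named glia, 2.46 times neurons at 29.4 ± 2.66. That class also held Otx2 at 226.6 and Folr1 at 135.0, both listed here as markers of choroid plexus and ependyma. They were at most 16.8 and 12.2 in all other classes.

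Neurons had the lowest mean of all 9 classes for 24 of 56 tested Rabs, against 20.7% of all genes tested. Neurons also had the deepest nuclei, so each class was split at 1000 UMIs per nucleus, a split added after the data were seen. Rab3a, a synaptic vesicle Rab known from neurons, differed between the depths. Its level was 43.8 ± 11.3 in neurons and 61.5 to 176 in the other classes, the reverse of Rab3c. In the 2308 neuronal nuclei under 1000 UMIs, Rab3a was 213 ± 107, and in the 73903 deeper ones 43.1 ± 10.8, a ratio of 4.93. In shallow nuclei of all 8 classes that could be read it was 128 to 222. Ttr, a choroid plexus gene, had the same course in neurons, 2286 ± 794 in shallow and 375 ± 106 in deep nuclei, and 1962 to 2694 in shallow nuclei of all 8 classes. Over the 16 endosomal Rabs the shallow-to-deep ratio in neurons ran from 1.10 for Rab4a to 2.58 for Rab5c. Other high values were those of Rab31 (2.14), Rab4b (2.06), Rab9 (2.04) and Rab14 (1.99). Outside these 16 the ratio was 0.574 for Rab27b and 0.506 for Rab40b. The part of free RNA in the low neuronal levels was not tested.

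**Figure D3:**
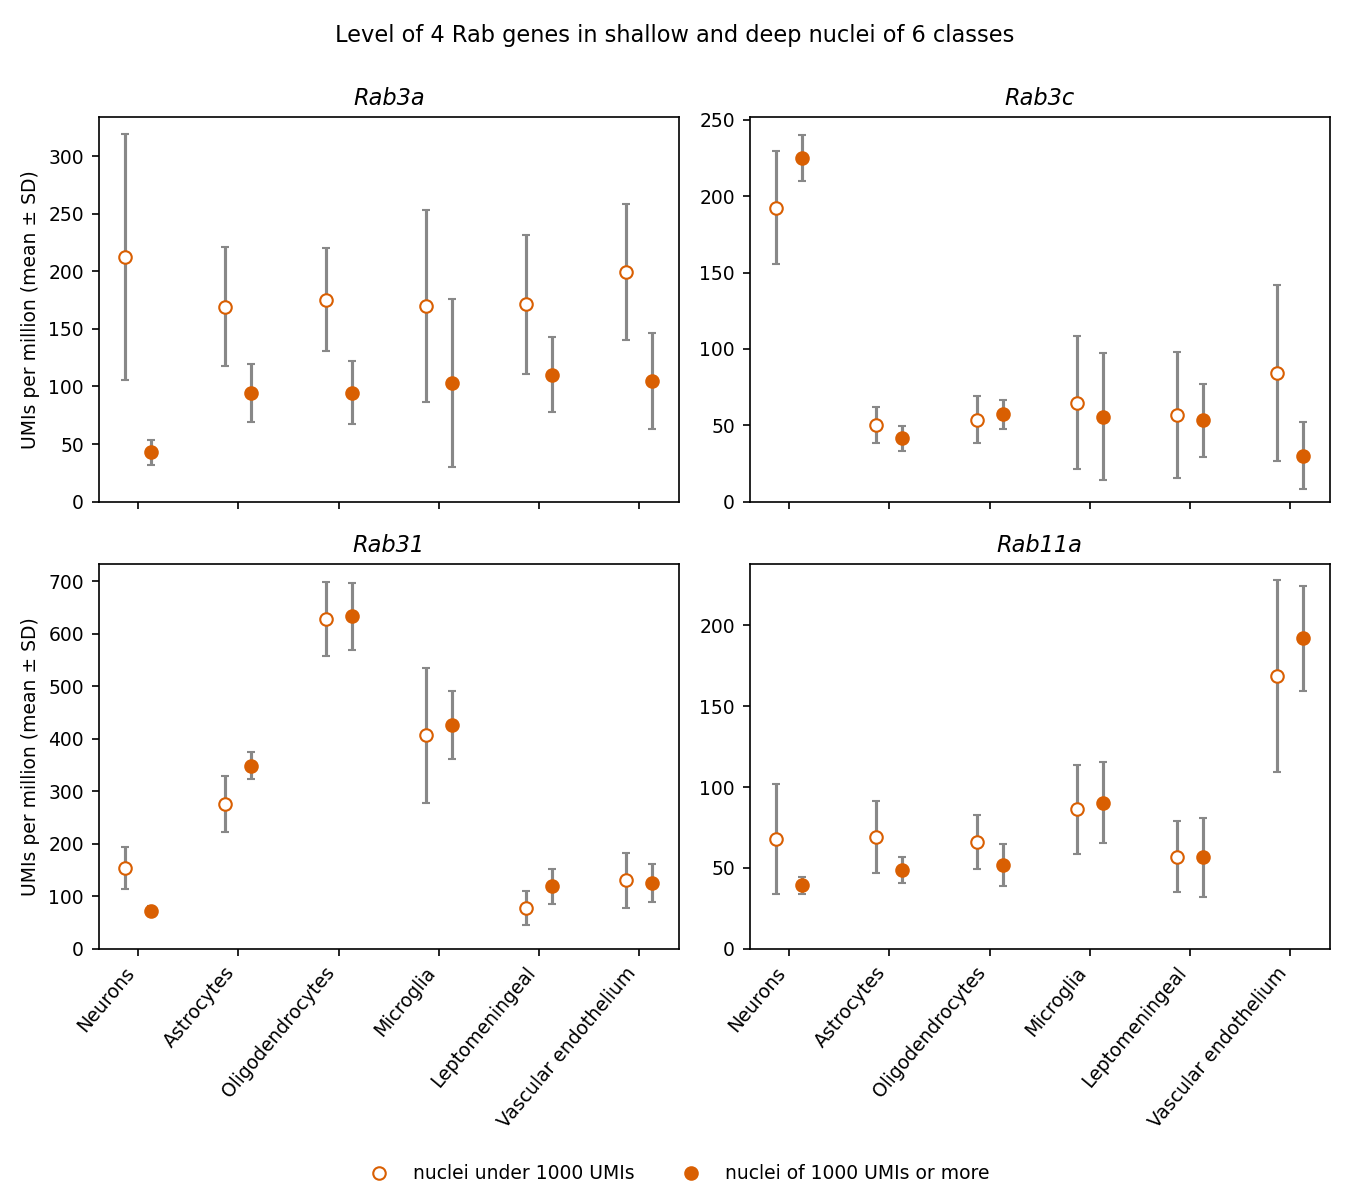
Levels of 4 Rab genes in nuclei under 1000 UMIs (open) and of 1000 UMIs or more (filled) of 6 classes, as mean ± SD over libraries in CPM with Malat1 left out. Rab3a in neurons drops from 213 to 43.1 between the depths, while Rab3c in neurons, Rab31 in oligodendrocytes and Rab11a in vascular endothelium are high at both.

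Leading levels of Rab11a, Rab31, Rab3c, Rab39 and Rab40c were close at the 2 depths, while those of Rab27b and Rab40b were lower in shallow nuclei. In neurons Rab27b was 43.1 ± 19.1 in shallow and 75.0 ± 4.16 in deep nuclei, and Rab40b was 45.2 ± 25.6 and 89.4 ± 5.59. Rab11a in vascular endothelium was 169 ± 59.3 in shallow and 192 ± 32.5 in deep nuclei, and in neurons 68.0 ± 34.1 and 39.1 ± 5.15. Rab31 in oligodendrocytes was 629 ± 71.1 and 633 ± 64.3. Rab3c in neurons was 192 ± 36.9 and 225 ± 14.9, Rab39 in microglia 94.7 ± 49.2 and 81.3 ± 56.2 (0 to 180.0 over deep libraries), and Rab40c in oligodendrocytes 300.1 ± 55.8 and 282 ± 47.3. For Rab14, the neuronal level of 165 ± 46.8 in shallow nuclei was near the 159 ± 14.7 of oligodendrocytes. In deep nuclei it was 83.1 ± 7.72 in neurons and 131 ± 9.87 in oligodendrocytes, so its low neuronal level was seen in deep nuclei.

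The control levels of Rabs were set beside the Malat1 change under OTV:Malat1, class by class. Differences in that change between classes were not tested. Malat1 was lower than in ATV:BACE1 by a log2 change of -2.44 (SE 0.20) in oligodendrocytes, -1.84 (SE 0.18) in vascular endothelium, -1.56 (SE 0.28) in astrocytes and -0.93 (SE 0.13) in microglia. It was -0.81 (SE 0.15) in pericytes, -0.70 (SE 0.13) in neurons, -0.51 (SE 0.22) in glia and -0.33 (SE 0.11) in leptomeningeal cells. In edgeR's quasi-likelihood test with Benjamini-Hochberg adjustment, adjusted p was 2.83e-07 in vascular endothelium, 2.87e-06 in oligodendrocytes, 0.00188 in microglia and 0.368 in astrocytes. In the same edgeR test it was 0.0897 in pericytes and 0.897 in glia, and neurons and leptomeningeal cells did not pass 0.05. With the replicate as a block edgeR's adjusted p was 3.59e-07 in astrocytes, 0.00376 in pericytes and 0.0476 in neurons as well. For glia and leptomeningeal cells edgeR's adjusted p with the block was 0.465 and 0.996. Over all nuclei the log2 change was -0.79 (SE 0.14), and edgeR's adjusted p was 1.00, or 0.297 with the block.

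Over 8 classes, the Rabs whose level was highest where the Malat1 log2 change was most negative were Rab33a, a Rab of the Golgi (Pearson r -0.76 between control level and Malat1 log2 change, with 13 UMIs in its sparsest class), Rab31 (r -0.72) and Rab10 (r -0.68). Without oligodendrocytes, r was -0.41 for Rab33a, -0.35 for Rab31 and -0.44 for Rab10. For Rab11a r was -0.22, and pericytes and vascular endothelium had the same control level of 173 CPM with Malat1 changes of -0.81 and -1.84. For Rab7 it was -0.098, for Rab5a -0.36 and for Rab12 0.19. Rab35, sparse in its lowest class with 26 UMIs, had r -0.46, or -0.73 without oligodendrocytes. Of 56 Rabs, 27 had a negative r, and 12 of the 16 endosomal ones did, against 40.4% of 21407 genes tested with a level in these classes. The median r was 0.036 over the 56 Rabs and 0.099 over all these genes. This count goes by sign only, and the 12 include small values such as Rab21 (-0.037) and Rab5c (-0.060). Many of the 16 also share a class pattern, so they are not separate counts. The 8 class points behind each r come from the same libraries and differ in depth, so the values describe the classes and no p is given.

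**Figure D4:**
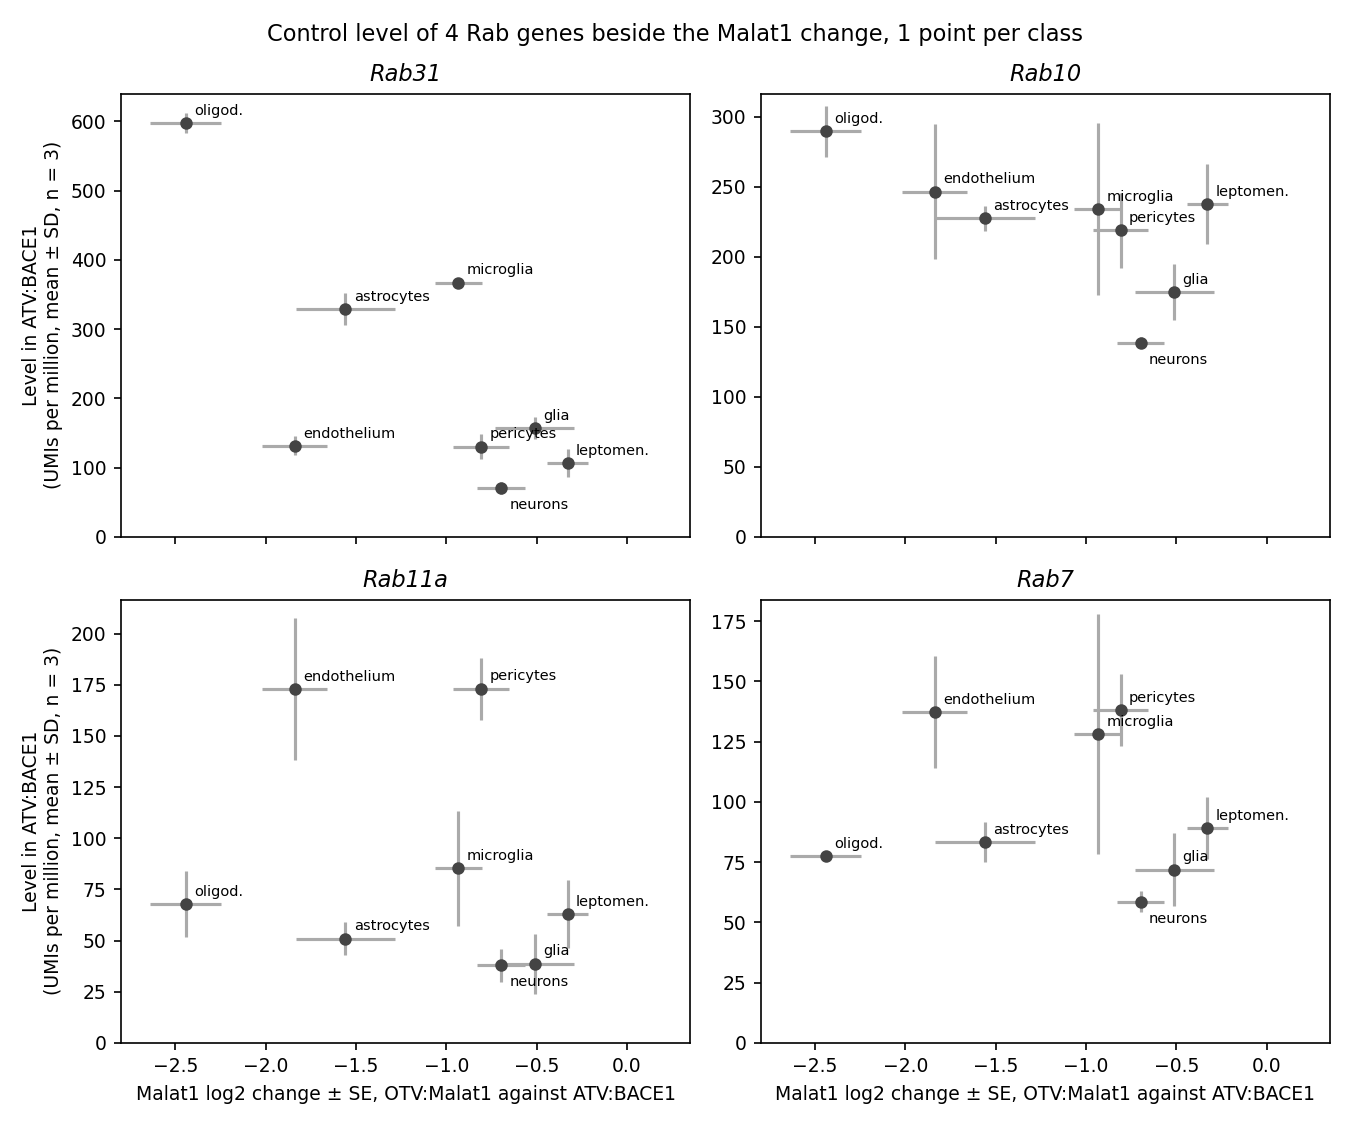
Level of 4 Rab genes in ATV:BACE1 (vertical axis, CPM with Malat1 left out, mean ± SD of 3 libraries) beside the Malat1 log2 change in OTV:Malat1 against ATV:BACE1 (horizontal axis, ± SE), 1 point per class. Oligodendrocytes sit at the upper left for Rab31 and Rab10; for Rab11a pericytes and vascular endothelium share a level at different Malat1 changes.

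Whether the dosing groups differed in Rab RNA was tested on summed counts of each library, as TMM-normalised CPM with Malat1 in the total, with edgeR's quasi-likelihood test and Benjamini-Hochberg adjustment over all genes. In sums over all nuclei, fewer nuclei of a class and less RNA per nucleus cannot be told apart. No Rab gene passed the adjusted threshold of 0.05 in OTV:Malat1 against ATV:BACE1, of 56 tested (0% of 21409 genes passed). At an unadjusted p under 0.05 there were 0 Rabs in edgeR (0.752% of all genes) and 1 in DESeq2 (0.495%), which also called 0 Rabs (0.00467%). The median log2 change of the 56 Rabs was 0.0088, beside 0.0068 over all genes tested, and 32 of the 56 were higher. Each library came from a separate mouse, and mice of 1 replicate number share batch, age and sex across the groups. This test does not use that tie. With the replicate as a block, edgeR again called 0 Rabs, and 5 were at an unadjusted p under 0.05 (3.77% of all genes).

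For the endosomal Rabs the values of OTV:Malat1 and ATV:BACE1 are given here, with intervals from the fit without the replicate block. Rab5a was 57.8, 49.8 and 62.0 CPM in replicates 1, 4 and 5 of ATV:BACE1 and 55.5, 49.2 and 55.7 in OTV:Malat1. Its log2 change was -0.080 (95% interval -0.32 to 0.16). Rab7 was 59.5, 58.7 and 53.8 CPM in ATV:BACE1 and 62.3, 55.7 and 54.6 in OTV:Malat1, with a log2 change of 0.0052 (-0.19 to 0.20). The groups overlapped for both. Rab11a was 43.1, 31.3 and 39.4 CPM in ATV:BACE1 and 39.7, 36.0 and 35.8 in OTV:Malat1, a log2 change of -0.030 (-0.33 to 0.27). Over the 16 endosomal Rabs the log2 change ran from -0.14 for Rab35 to 0.11 for Rab10, with 9 higher and 7 lower, and their intervals lay within -0.42 and 0.40.

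**Figure D5:**
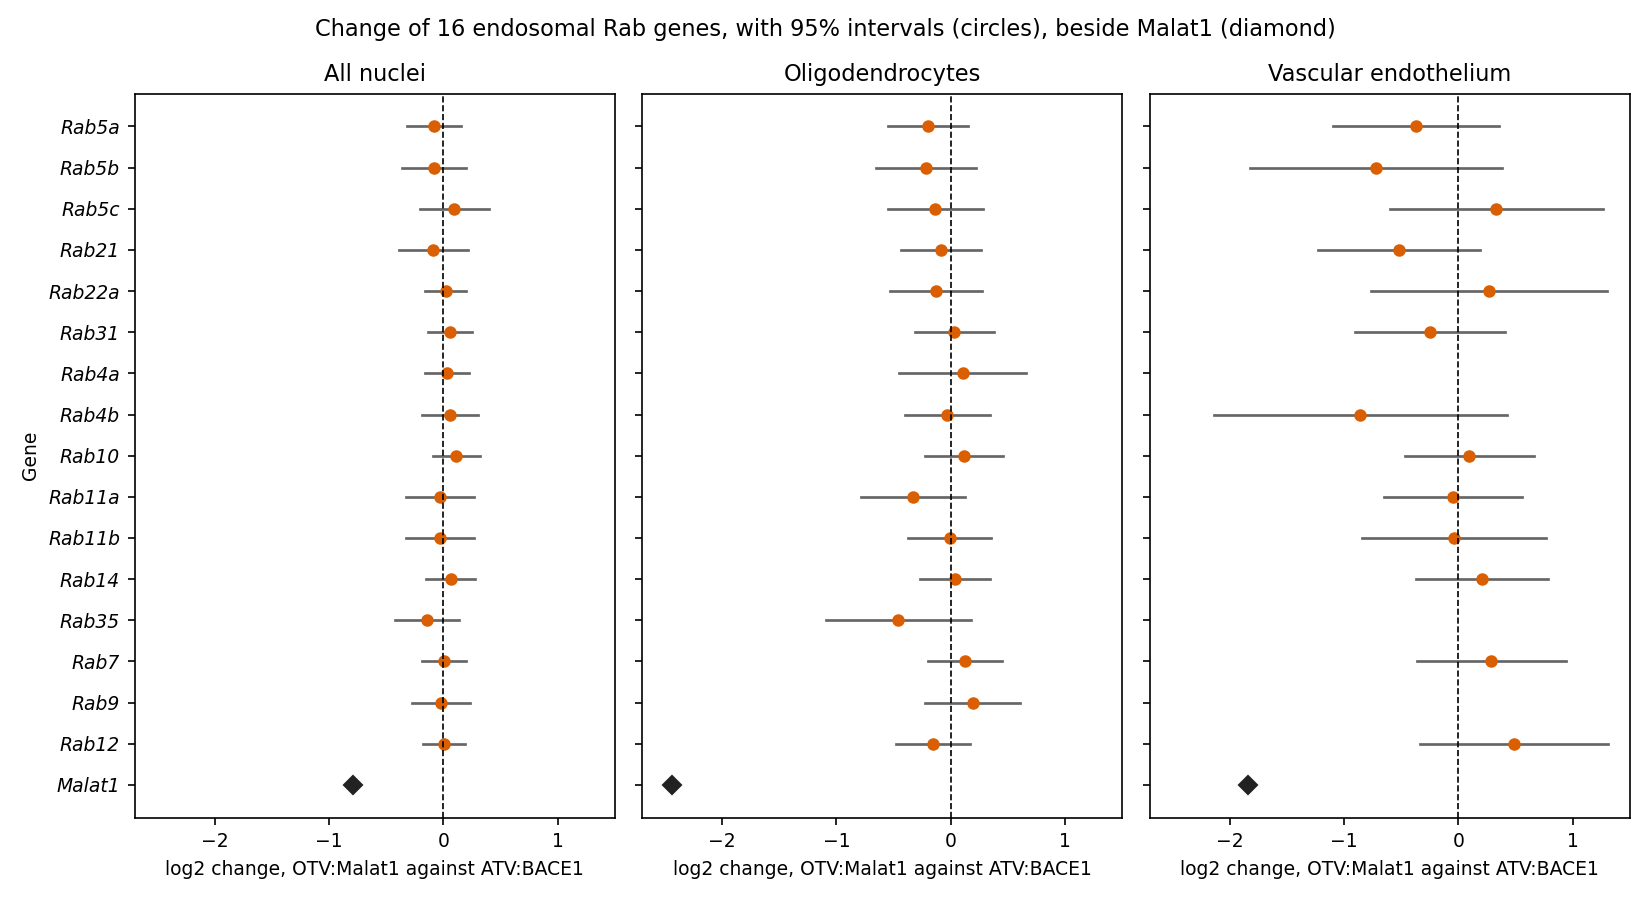
Log2 change of 16 endosomal Rab genes in OTV:Malat1 against ATV:BACE1 with 95% intervals (circles and lines) in all nuclei, oligodendrocytes and vascular endothelium, beside the change of Malat1 (diamond). Intervals are from the fit without the replicate block. All intervals of the Rabs cross 0, the widest in vascular endothelium, where Rab4a, Rab9 and Rab35 were not tested.

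By the rule of the smallest unadjusted p, Rab9b, Rab3d and Rab33b are named for this comparison. Rab3d, a Rab of secretory granules, was 3.39, 3.35 and 3.78 CPM in replicates 1, 4 and 5 of ATV:BACE1, 2.77, 2.77 and 2.75 in nonTV:Malat1, 2.59, 2.995 and 3.004 in OTV:Malat1 and 3.003 and 3.006 in Malat1 ASO. The 3 control libraries lay above the 8 others on this scale, TMM-normalised CPM. With Malat1 left out Rab3d overlapped, at 3.34 in Malat1 ASO replicate 5 and 3.32 in ATV:BACE1 replicate 4. Its log2 change was -0.29 (SE 0.14, adjusted p = 1.00, edgeR), and it was the only Rab without overlap between OTV:Malat1 and ATV:BACE1, both on TMM-normalised CPM (3.08% of all genes) and on levels with Malat1 left out (2.66%). Rab9b was 7.12, 5.37 and 6.84 CPM in ATV:BACE1 and 5.07, 4.91 and 5.66 in OTV:Malat1, with a log2 change of -0.31 (SE 0.15, adjusted p = 1.00, edgeR). Rab33b, a Golgi Rab tied to autophagy, was 10.2, 7.85 and 11.6 CPM in ATV:BACE1 and 9.16, 7.04 and 6.83 in OTV:Malat1, with a log2 change of -0.36 (SE 0.18, adjusted p = 1.00, edgeR). Within replicates 1, 4 and 5 the log2 ratio was -0.29, -0.12 and -0.26 for Rab3d, -0.42, -0.11 and -0.24 for Rab9b and -0.14, -0.14 and -0.69 for Rab33b.

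Within classes, 283 pairs of Rab gene and class were tested in OTV:Malat1 against ATV:BACE1. None passed the adjusted threshold in edgeR (0.00513% of 77917 pairs of gene and class did) or in DESeq2 (0.0077%). At an unadjusted p under 0.05 edgeR gave 4 pairs (2.27% of all pairs) and DESeq2 gave 0 (0.84%). In oligodendrocytes, where Malat1 was lowest against control, the 16 endosomal Rabs ran from -0.46 for Rab35 (95% interval -1.10 to 0.17) to 0.19 for Rab9 (-0.23 to 0.61). Rab31 there had a log2 change of 0.032 (-0.32 to 0.38) and Rab10 of 0.11 (-0.23 to 0.45). In vascular endothelium 13 of the 16 could be tested, and Rab11a had a log2 change of -0.044 (-0.65 to 0.56) and Rab7 of 0.29 (-0.36 to 0.94). In that class intervals reached from -2.14 to 1.31, so the precision there was low. In astrocytes the values ran from -0.28 for Rab5a to 0.23 for Rab12, and in neurons from -0.14 for Rab35 to 0.13 for Rab5c.

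The Rab with the smallest unadjusted p differed from class to class. It was Rab3d in neurons (log2 change -0.34), Rab5b in glia (-0.61), Rab23 in astrocytes (0.46) and Rab5c in pericytes (-0.64). It was Rab6b in leptomeningeal cells (-0.46), Rab11a in oligodendrocytes (-0.33), Rab21 in vascular endothelium (-0.52) and Rab12 in microglia (0.73). Rab23, a regulator of hedgehog signalling, is the only one of the 8 outside the routes of endosome, Golgi and secretion. The smallest of edgeR's adjusted p among these 8 was 0.904, for Rab5b in glia, and the first 3 named were under an unadjusted 0.05.

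In the 4 other comparisons no Rab passed either, in all nuclei or in a class, by edgeR or DESeq2. Over pairs of Rab and class, edgeR gave at an unadjusted p under 0.05 1 of 283 in nonTV:Malat1 (2.05% of all pairs) and 4 of 283 in Malat1 ASO (2.61%), both against ATV:BACE1, and DESeq2 gave 1 (0.814%) and 2 (1.13%). OTV:Malat1 gave 2 of 289 against nonTV:Malat1 (1.74%) and 6 of 289 against Malat1 ASO (1.95%) in edgeR, and 0 in DESeq2 (0.577% and 0.651%). The adjusted threshold was passed by 0.00252% and 0.00378% of all pairs in these last 2 and by 0% in the first 2. In DESeq2 it was passed by 0% and 0.00128% of all pairs in the first 2 comparisons, and by 0.00503% in each of the last 2. In nonTV:Malat1 against ATV:BACE1, edgeR gave 1 of 56 Rabs at an unadjusted p under 0.05 in all nuclei (0.901% of all genes), namely Rab3d (log2 change -0.34, SE 0.14), and DESeq2 also gave 1 (0.696%). With the replicate block edgeR gave 3 (5.28%). Rab40b followed at -0.12 and Rab37 at -0.26 (adjusted p = 1.00 for all 3, edgeR). Leaving out 1 library in turn gave -0.3714 to -0.2892 for Rab3d, -0.1832 to -0.0807 for Rab40b and -0.4077 to -0.0775 for Rab37. On levels with Malat1 left out, libraries did not overlap for Rab31, higher in nonTV:Malat1, and Rab3d, lower (3.71% of all genes). On TMM-normalised CPM they did not for Rab22a and Rab38, higher, and Rab3d, lower (4.05%). Since ATV:BACE1 is the control in this comparison as in the one above, the lower Rab3d values rest on the same 3 libraries.

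In Malat1 ASO against ATV:BACE1, edgeR gave 3 Rabs at an unadjusted p under 0.05 in all nuclei (1.75% of all genes) and DESeq2 gave 2 (1.33%), with 0 adjusted (0.00934%). With the replicate block edgeR gave 9 of 56 (8.87% of all genes), none of them past the adjusted threshold. Rab31 was 122 and 107 CPM in the Malat1 ASO libraries and 93.0, 104 and 96.0 in ATV:BACE1, a log2 change of 0.23 (SE 0.097, adjusted p = 1.00, edgeR). Rab6a, which runs traffic within the Golgi, was 133 and 114 CPM against 112, 97.8 and 101, a log2 change of 0.26 (SE 0.11, adjusted p = 1.00, edgeR). Rab9b was 4.89 and 5.02 CPM against 7.12, 5.37 and 6.84, a log2 change of -0.38 (SE 0.16, adjusted p = 1.00, edgeR). Leaving out 1 library in turn gave 0.1374 to 0.3254 for Rab31, 0.1398 to 0.368 for Rab6a and -0.4912 to -0.3009 for Rab9b. On levels with Malat1 left out, libraries did not overlap for Rab43, Rab6a, Rab39, Rab10, Rab15 and Rab31, all higher, and for Rab27b, lower; with 2 libraries on one side 11.2% of all genes did not overlap. On TMM-normalised CPM the first 6 were joined by Rab5c and Rab26, also higher. The lower ones there were Rab3d and Rab9b, and 12% of all genes did not overlap. These lists set Malat1 ASO, without a replicate 4, against a group that has it. Within replicates 1 and 5 the log2 ratio of Rab27b was -0.0047 and -0.017 on TMM-normalised CPM.

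OTV:Malat1 was also set against the other carriers of the same ASO. With the replicate block edgeR gave 2 of 56 Rabs at an unadjusted p under 0.05 against nonTV:Malat1 (3.97% of all genes) and 2 against Malat1 ASO (3.62%). Against nonTV:Malat1, edgeR and DESeq2 gave 0 Rabs at an unadjusted p under 0.05 (0.766% of all genes in edgeR, 0.551% in DESeq2) and 0 adjusted (0% and 0.00467%), and libraries overlapped for all 56, both on levels with Malat1 left out (3.3% of all genes did not overlap) and on TMM-normalised CPM (3.53%). First by edgeR's p were Rab15 (log2 change 0.16), Rab37 (0.29) and Rab9b (-0.22), with an adjusted p of 1.00 each. Leaving out 1 library in turn gave 0.1071 to 0.2469 for Rab15, 0.1155 to 0.4454 for Rab37 and -0.2925 to -0.1708 for Rab9b. Against Malat1 ASO there were again 0 at an unadjusted p under 0.05 (0.621% of all genes in edgeR, 0.364% in DESeq2), in both tools, and 0 adjusted (0% and 0.00934%). First by edgeR's p were Rab43 at -0.24, Rab31 at -0.18 and Rab8b at -0.17, with an adjusted p of 1.00 each. Their ranges with 1 library left out were -0.2956 to -0.1505, -0.2667 to -0.0787 and -0.2321 to -0.0861. On levels with Malat1 left out, libraries did not overlap for Rab27b, higher, and Rab43, Rab11a, Rab21, Rab5b and Rab31, lower (10.6% of all genes). On TMM-normalised CPM Rab31 overlapped, and Rab8a and Rab8b were lower without overlap (9.99%). Here too Malat1 ASO lacks a replicate 4, which OTV:Malat1 has.

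By role, 0 members of each list passed the test in OTV:Malat1 against ATV:BACE1 over all nuclei, where the median over all genes was 0.0068. The median log2 change was -0.029 for the 6 early endosome Rabs, 0.016 for the 11 tested recycling Rabs, 0.0050 for the 6 late endosome Rabs, 0.051 for the 8 secretory Rabs and -0.0094 for the 14 Rabs of the ER and Golgi. Of the 8 secretory Rabs 7 were higher, and Rab3d was the lower one. Within replicates 1, 4 and 5, Rab3b alone of the 7 was higher in each (log2 ratio 0.21, 0.040 and 0.064). Rab proteins depend on factors that activate and switch them off, such as Rabgef1 and the Rab3 GTPase-activating complex, and on effectors such as Eea1 and the Rab11 family interacting proteins. Of 80 such genes tested in all nuclei, 0 passed in edgeR or DESeq2 in any of the 5 comparisons. At an unadjusted p under 0.05 edgeR gave 0 of them in OTV:Malat1 against ATV:BACE1, where 0.752% of all genes were, and their median log2 change was 0.020.

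After group means were removed, libraries of the same replicate number deviated together, with a median correlation of 0.799 over genes in 15 pairs. On levels with Malat1 left out, in all nuclei, 20 of 56 Rabs were lower in the 3 replicate 4 libraries than in the 8 libraries of replicates 1 and 5, against 14.4% of all genes tested, and 1, Rab27b, was higher (2.41%). Among the 20 were Rab5b, Rab5c, Rab7, Rab11a, Rab11b, Rab14 and Rab21. The level of Rab11a was 31.0, 37.6 and 36.4 CPM in replicate 4 of ATV:BACE1, OTV:Malat1 and nonTV:Malat1, and 39.0 to 50.3 in replicates 1 and 5. In neurons alone 19 Rabs were lower in replicate 4 (14.6% of all genes). On TMM-normalised CPM, a scale added after the data were seen, the count was lower: 10 Rabs in all nuclei (9.35% of all genes) and 7 in neurons (8.69%). Rab5b, Rab7, Rab11a, Rab14 and Rab21 were not among these 10, while Rab5c and Rab11b were. This split was noticed after the data were seen, and replicate 4 differs in batch, age and, from replicate 1, in sex, which cannot be told apart.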

How the data were processed

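Single-nucleus libraries of 11 mice, 1 per mouse, were aligned to mm10 with Cell Ranger 5.0.0 and handled in Seurat 4, per the submitters' processing notes. The deposited matrix holds UMI counts per nucleus, and the authors' metadata give library, class, class score and doublet call. The class score is a fraction from 0 to 1 as the authors deposited it, the predicted share for the best class. The lowest nucleus had 499 UMIs. The range of depth over libraries is given with the results.

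Counts were summed per library and class with at least 20 nuclei. Sums of all 4 groups were fitted together in edgeR 4.0.16 (R 4.3.3; TMM, filterByExpr by group, quasi-likelihood test, Benjamini and Hochberg adjustment over all genes, threshold 0.05), with DESeq2 1.42.0 as an alternative. The fit was run on simulated counts with known changes, which held no tie between libraries of the same replicate number. Named genes were the 16 endosomal Rabs and, per comparison, the 3 Rabs with the smallest p in all nuclei. Rabs and lists were chosen with earlier results of these data known. Libraries with the same replicate number deviated together (correlations 0.601 to 0.889 in 15 pairs, against -0.859 to 0.456 in 30 others, over 7617 genes), so a replicate block was also fitted. Gene positions are from GENCODE M21 and promoters from RefSeq GRCm38.p6. Other alternatives changed scaling, filter, doublets and depth, or left out 1 library in turn. None left out all libraries of a replicate number. Perivascular macrophages reached 20 nuclei in 1 library and were left out of the tests.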

Additional observations from a re-analysis of the deposited data

Results flagged for a closer look

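Of 90 combinations of 16 endosomal Rabs and 6 pairs of classes with at least 50 UMIs in both, 2 (2.22%) had within-replicate log2 ratios of OTV:Malat1 to ATV:BACE1 that all pointed one way in 1 class and all the other way in another. Over all genes tested, 1.89% of 58690 such combinations did. Rab4b, of fast recycling, averaged 0.07 in neurons (0.0012, 0.10 and 0.099 in replicates 1, 4 and 5) and -1.02 in vascular endothelium (-0.60, -2.44 and -0.037). Rab12, linked to degradation of the transferrin receptor, averaged -0.15 in oligodendrocytes (-0.19, -0.19 and -0.078) and 0.21 in astrocytes (0.24, 0.36 and 0.042). The difference between classes was not tested for either gene, and neither gene passed edgeR's test in any of these 4 classes. In vascular endothelium Rab4b was 107, 126 and 52.2 CPM in ATV:BACE1 and 70.6, 22.4 and 50.9 in OTV:Malat1. The ratio of replicate 4 was the most negative of the 3. The smallest nonzero Rab value in this class was 21.0 CPM in ATV:BACE1 replicate 4 and 11.2 in OTV:Malat1 replicate 4. That ratio therefore rests on few UMIs.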

How the results depend on the processing

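No Rab gene was called in any comparison, in all nuclei or in a class, under any alternative run. With the replicate block edgeR called 0 Rabs as well, and the count at an unadjusted p under 0.05 in all nuclei for OTV:Malat1 against ATV:BACE1 went from 0 to 5 (3.77% of all genes), and for Malat1 ASO against ATV:BACE1 from 3 to 9 (8.87%). That alternative changed no Rab call. The median log2 change of the 56 Rabs in OTV:Malat1 against ATV:BACE1 was 0.0513 with total counts as scaling. In Malat1 ASO against ATV:BACE1 it was 0.0193 with Malat1 left out, 0.0018 with the block and 0.0412 in singlets. In OTV:Malat1 against Malat1 ASO it was -0.0073 with total counts, -0.0044 with the block and -0.0355 in singlets. With 1 library left out in turn, the medians ran from -0.0260 to 0.0576 in OTV:Malat1 and from -0.0599 to 0.0202 in nonTV:Malat1 against ATV:BACE1. They ran from 0.0067 to 0.0862 in Malat1 ASO against ATV:BACE1, from -0.0427 to 0.0540 in OTV:Malat1 against nonTV:Malat1, and from -0.0769 to -0.0026 against Malat1 ASO.

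Rabs highest in 1 class with no overlap numbered 4 (8.7% of all genes), and 13 in the 3 ATV:BACE1 libraries alone (23.2% of all genes). They numbered 7 with class scores of at least 0.5 (9.14%), 5 with Malat1 kept (8.71%) and 6 in nuclei of 1000 UMIs or more (8.13%). With 1 library left out in turn there were 4 to 6 (8.98% to 9.38%). The 6 in deep nuclei, where vascular smooth muscle could not be read, were Rab3c, Rab15, Rab27b and Rab40b in neurons, Rab36 in glia and Rab31 in oligodendrocytes; Rab39 and Rab40c were not among them. With Rab8b left out, the summed level of recycling Rabs in microglia went from 1.119 to 0.836 times that of vascular endothelium. After the data were seen, leaving out vascular smooth muscle gave 9 (10.9%), and leaving out pericytes too gave 10 (13.2%). On TMM-normalised CPM, also added then, the Rabs whose replicate 4 libraries did not overlap the others numbered 11 in place of 21 in all nuclei and 8 in place of 19 in neurons, in either direction. Small changes turned sign in OTV:Malat1 against ATV:BACE1. With total counts Rab11a was 0.0024, Rab11b 0.0081 and Rab9 0.0177. With DESeq2 Rab7 was -0.0057 and Rab12 -0.0067, and with Malat1 left out -0.0050 and -0.0049. In singlets Rab7 was -0.0003. With 1 library left out in turn the range crossed 0 for Rab4a (-0.0002 to 0.0972), Rab11a (-0.1459 to 0.0717) and Rab11b (-0.1260 to 0.0650). It also did so for Rab7 (-0.0562 to 0.0412), Rab9 (-0.0651 to 0.0525) and Rab12 (-0.0511 to 0.0402). The same held for Rab21 (-0.2358 to 0.0013), Rab22a (-0.0066 to 0.0481) and Rab31 (-0.0072 to 0.1088). Of the other values of named genes, 537 kept their direction and side of the threshold. The cause of these shifts was not tested. Libraries held 11 to 48 nuclei of vascular smooth muscle, 40 to 126 pericytes, 58 to 134 nuclei of vascular endothelium and 60 to 202 microglia, which limits precision there.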

Other observations

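Perivascular macrophages, with 125 nuclei in all 11 libraries, were summed to 1 value per gene, with exact Poisson 95% intervals that cover counting error only. Mrc1, a marker of these cells, was at 2600 CPM without Malat1. Rab8b, of traffic to the surface, was at 659 (528 to 813, from 87 UMIs), above its microglial mean of 337 CPM. Rab10 was at 364 (268 to 482), Rab31 at 265 (185 to 369) and Rab39 at 68.2 (31.2 to 129, from 9 UMIs). Only 1 library held at least 20 of these nuclei, and no comparison between dosing groups was made in them.

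Rab30, a Golgi Rab, had a level of 266 ± 22.6 CPM in astrocytes and 221 ± 26.9 in leptomeningeal cells (SD, n = 11), and the libraries of leptomeningeal cells did not overlap those of oligodendrocytes, the next class. Over all nuclei the level of Rab3a varied by 26.1% (SD over mean) between the 11 libraries.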
